A study of Macaca fascicularis with 32 samples.

Results

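The nuclear-encoded subunits of the mitochondrial respiratory chain were followed across cell classes in a macaque model of Parkinson's disease. Members were all genes whose symbol starts with one of the usual subunit prefixes (NDUFA, NDUFB, NDUFC, NDUFS and NDUFV for complex I, SDHA to SDHD, UQCR, COX4 to COX8, ATP5F, ATP5M and ATP5P), with the NDUFAF assembly factors left out. This rule found 54 of the 22316 genes in the annotation of the count matrices. Complex I gave 29 members, succinate dehydrogenase (complex II) 2 (SDHB and SDHD), the cytochrome bc1 complex (complex III) 3 (UQCRB, UQCRC1 and UQCRQ), cytochrome c oxidase (complex IV) 8 and ATP synthase 9. The complex IV group held NDUFA4L2, a paralog of NDUFA4. The SDHA prefix also caught 3 genes that are not subunits, the complex II assembly factors SDHAF1, SDHAF2 and SDHAF4, which are given separately. Of 17 core subunits set down for naming, 7 were found under those symbols (NDUFS1, NDUFV1, SDHB, SDHD, UQCRC1, ATP5F1B and ATP5F1C), and the others, such as COX4I1 and ATP5F1A, were not analysed here.

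The respiratory chain passes electrons from NADH and succinate to oxygen and pumps protons across the inner mitochondrial membrane, and ATP synthase uses the proton gradient to make ATP. Most subunits are encoded in the nucleus and imported into the mitochondrion, while a small set, including the proton-pumping core of complex I and the catalytic core of cytochrome c oxidase, is encoded in mitochondrial DNA. Complex I is a long-standing subject of Parkinson's disease research, because its inhibitors damage the dopaminergic neurons of the substantia nigra, whose axons end in the putamen and caudate nucleus.

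The study examined Macaca fascicularis given AAV-α-synuclein, a viral vector for the protein that forms Lewy bodies, plus poly(ADP-ribose), the polymer made by PARP enzymes, which its title calls an accelerated Parkinson's disease model. The labels name 2 treatments, PD for the model and CT for the control, and 3 tissues, SN for the substantia nigra, PUT for the putamen and CN for the caudate nucleus, which the labels spell "Caudal nucleus". They give no age, sex, dose, time point or description of the control, so what the CT animals received is not known here. By the labels, PUT and CN had 8 control samples each and 4 from the model, and SN 4 of each. The deposited data are 6 matrices, 1 per tissue and treatment, each with a single barcode set that cannot be divided into animals, so that each was taken as 1 library. Every PD against CT difference is therefore a difference between 2 libraries with no replicate check, in which the treatment cannot be told apart from the animals or the library preparation, and no p-value was computed.

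The libraries held between 7702 and 10389 barcodes, 18692617 to 36723856 unique molecular identifiers (UMIs, which count single RNA molecules) and 7183 to 9695 retained nuclei. The members took 0.124% to 0.161% of the UMIs of a library. Because RNA came from isolated nuclei, the values describe the RNA of a nuclear preparation and not whole-cell mRNA or protein. No correction for free RNA was made, so they can include some RNA from outside the nucleus. A level is a gene's share of all UMIs of its class in a library, in counts per 1000000 (CPM), with exact 95% Poisson intervals, and ratios with exact conditional 95% intervals. All intervals cover counting error only, not differences between animals. Libraries shared between 14 and 38 barcodes per pair, at most 0.411% of the smaller library. Mitochondrially encoded UMIs made up 0.0178% of the UMIs in SN CT and 0.0444% in SN PD, and 0.0146% to 0.0224% in the striatal libraries.

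Nuclei were clustered without using the members and named from marker genes. The names therefore carry "-like". The SN libraries gave dopaminergic neuron-like nuclei (357 in CT, 274 in PD) and other neuron-like nuclei. The striatal libraries gave direct and indirect spiny projection neuron (SPN)-like nuclei, SPN-like nuclei whose direct or indirect identity was not resolved (undivided), and other neuron-like nuclei. All 3 tissues gave oligodendrocyte-like, oligodendrocyte precursor (OPC)-like, astrocyte-like and microglia or macrophage-like nuclei. The summed dopaminergic markers stood at 2344 CPM in the SN CT dopaminergic neuron-like nuclei and 2258 CPM in PD, and at 65.4 CPM and 71.3 CPM in the other neuron-like nuclei of the same libraries. The SN astrocyte-like class carried more oligodendrocyte marker RNA (4929.6 CPM in CT, 5075 CPM in PD) than astrocyte marker RNA (4273 CPM and 4805 CPM).

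The summed level of the members was lower in PD than in CT in every striatal class compared, and near CT in the SN classes compared, which had at least 100 nuclei in both libraries. The counting interval of the ratio lay below 1 in 15 of 16 striatal class comparisons and held 1 in the remaining one, the undivided SPN-like nuclei of PUT. The ratios ran from 0.709 to 0.938. In the SN, 2 of 6 classes had an interval below 1, 4 held 1 and 0 lay above 1, with ratios from 0.939 to 1.05. A vascular or fibroblast-like cluster below that number went the other way in the SN (50 nuclei in CT, 81 in PD), at 2022 CPM in CT and 3084 CPM in PD, a ratio of 1.53 (1.27 to 1.84), while in CN (53 and 54 nuclei) its ratio was 0.925 with an interval that held 1. The difference between SN and striatum was not tested, since each rests on single libraries.

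**Figure D1:**
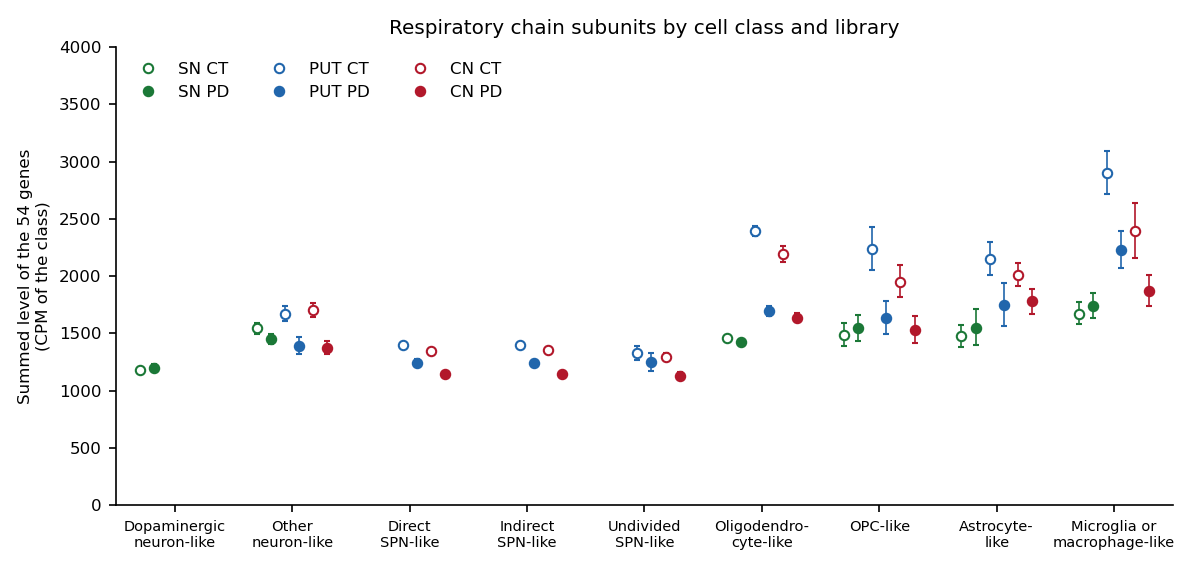
Summed level of the 54 genes (y axis, CPM of the class) in each cell class (x axis), with open points for CT and filled points for PD, green for SN, blue for PUT and red for CN, and exact 95% Poisson bars. In PUT and CN each filled point lies below the open point beside it, with the widest gap in the oligodendrocyte-like nuclei (2390.4 CPM and 1695 CPM in PUT), whereas the SN points lie close together.

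Among CT classes taken over all depths, glial nuclei gave the members a larger share of their UMIs than striatal projection neurons did. In PUT CT the summed level was 1398 CPM in direct and 1394 CPM in indirect SPN-like nuclei, 1670.3 CPM in other neuron-like, 2390.4 CPM in oligodendrocyte-like and 2898 CPM in microglia or macrophage-like nuclei. In CN CT the same classes held 1344, 1356, 1703, 2188 and 2390.4 CPM. These levels cover all depths, and the gap was small in PUT CT nuclei of 2000 to under 4000 UMIs. There the level was 1701 CPM (1586 to 1822) in oligodendrocyte-like, 1622 CPM (1560 to 1686) in direct and 1612 CPM in indirect SPN-like nuclei. Other neuron-like nuclei of this range stood higher, at 2028 CPM. In PD the oligodendrocyte-like and direct SPN-like levels of this range were 1384 and 1329 CPM in PUT, and 1352 and 1382 CPM in CN. The SN CT classes lay closer together. They ran from 1179.5 CPM in dopaminergic neuron-like nuclei through 1461 CPM in oligodendrocyte-like and 1542 CPM in other neuron-like nuclei to 1672 CPM in microglia or macrophage-like nuclei.

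Gene by gene, a member was compared where it had at least 100 UMIs over both groups, and counted as higher or lower where the ratio was at least 1.5-fold. From oligodendrocyte-like to direct SPN-like nuclei of PUT CT, 33 of 47 members were lower and 0 higher, against 34.8% of all genes lower and 24.7% higher. In CN CT it was 32 of 46 lower and 0 higher (30.6% and 28.0% of all genes). The median log2 ratio of the members was -0.82 in PUT and -0.78 in CN, against -0.22 and -0.10 over all genes. The neuron-like nuclei were deeper (median 4731.5 UMIs in PUT CT direct SPN-like nuclei, 1047 in oligodendrocyte-like). In 2 other settings the distance was smaller, but each rests on fewer members and nuclei, and a minimum of genes does not match depth. Thinned to 1000 UMIs, which leaves out shallower nuclei, the CN median was -0.29 over 12 members, with 491 of 1854 oligodendrocyte-like nuclei kept. With nuclei of at least 1000 genes it was -0.39 over 43 members, with 73 oligodendrocyte-like nuclei. Of these members 16 were lower and 7 higher (30.8% and 33.7% of all genes). PUT stood at -0.71 over 37 members thinned and -0.58 over 45 with at least 1000 genes. In the PD libraries the distance was shorter than in CT, with 17 of 46 members lower in PUT (33.3% of all genes lower, 25.6% higher) and 20 of 47 lower and 1 higher in CN (33.5% and 25.4%). In both tissues the oligodendrocyte-like level was the one that lay further below its CT value.

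Direct and indirect SPN-like nuclei did not differ past 1.5-fold in any member measured. Of 47 members in PUT CT and 48 in CN CT, 0 passed in either direction (1.57% of all genes higher and 1.44% lower in PUT, 1.26% and 1.23% in CN), and the median log2 ratio was -0.01 in both. Other neuron-like nuclei had 3 of 45 members higher than direct SPN-like nuclei in PUT CT and 0 lower (21.7% and 13.7% of all genes), and 9 of 45 higher and 1 lower in CN CT (22.3% and 14.6%). One of these was NDUFA8, an accessory complex I subunit, at 40.7 CPM in PUT CT and 41.2 CPM in CN CT other neuron-like nuclei and at 17.5 to 19.8 CPM in direct and indirect SPN-like nuclei of the same libraries.

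In the SN CT library, 16 of 47 members were lower in dopaminergic neuron-like than in oligodendrocyte-like nuclei and 1 was higher. Of all genes 37.4% were lower, a share near that of the members, and 24.9% were higher. Against other neuron-like nuclei of the SN, 7 of 34 members were lower in dopaminergic neuron-like nuclei and 0 higher (22.3% and 8.5% of all genes). SDHB, the iron-sulfur subunit of succinate dehydrogenase, was at 67.8 CPM in SN CT dopaminergic neuron-like nuclei, 82.7 CPM in other neuron-like and 47.4 CPM in oligodendrocyte-like nuclei. ATP5F1E, the epsilon subunit of the ATP synthase head, was at 15.7 CPM in dopaminergic neuron-like and 42.5 CPM in oligodendrocyte-like nuclei of SN CT.

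Several members stood high in single glial classes. NDUFB9, an accessory subunit in the membrane arm of complex I, was at 99.7 CPM in microglia or macrophage-like and 99.5 CPM in OPC-like nuclei of SN CT, at 61.5 CPM in oligodendrocyte-like and at 25.8 CPM in dopaminergic neuron-like nuclei. In PUT CT its level was 76.8 CPM in microglia or macrophage-like, 63.2 CPM in oligodendrocyte-like and 22.7 CPM in direct SPN-like nuclei, so that of the classes named neuron-like nuclei were the lowest in both tissues. SDHD, a membrane anchor of succinate dehydrogenase, was at 65.1 CPM in SN and 76.8 CPM in PUT microglia or macrophage-like CT nuclei, but at 37 CPM in CN. ATP5F1E was at 163 CPM in microglia or macrophage-like, 107 CPM in oligodendrocyte-like and 35.8 CPM in direct SPN-like nuclei of PUT CT.

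One complex I gene had lower levels in SN than in striatum in the CT libraries, and so did some members of other complexes. NDUFS3, a core subunit near the ubiquinone-binding site, was at 8.9 CPM in dopaminergic neuron-like, 8.22 CPM in oligodendrocyte-like and 13.2 CPM in other neuron-like nuclei of SN CT. In the striatal CT libraries it was at 38.2 CPM and 42 CPM in PUT direct and indirect SPN-like nuclei, 38.4 CPM and 37.7 CPM in CN, and 38.1 CPM and 34.3 CPM in PUT and CN oligodendrocyte-like nuclei. Over all CT classes compared, NDUFS3 ran from 8.22 CPM in oligodendrocyte-like to 16.6 CPM in OPC-like nuclei in the SN, and from 20.4 CPM in OPC-like to 51.2 CPM in microglia or macrophage-like nuclei in the striatum, so that these ranges of levels did not overlap, although the counting intervals of the OPC-like nuclei did. In the PD libraries the ranges overlapped. The CT ranges of levels also lay apart for ATP5PF (SN up to 33.2 CPM, striatum from 36.3 CPM). For ATP5MC3 (18.0 and 18.6 CPM) and COX7A1 (4.28 and 4.40 CPM) they nearly touched. Counting error was not taken into account for these genes. The share of all genes with CT ranges apart in this way was not computed, so it cannot be read as a trait of the members. Tissue cannot be told apart from library here.

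**Figure D2:**
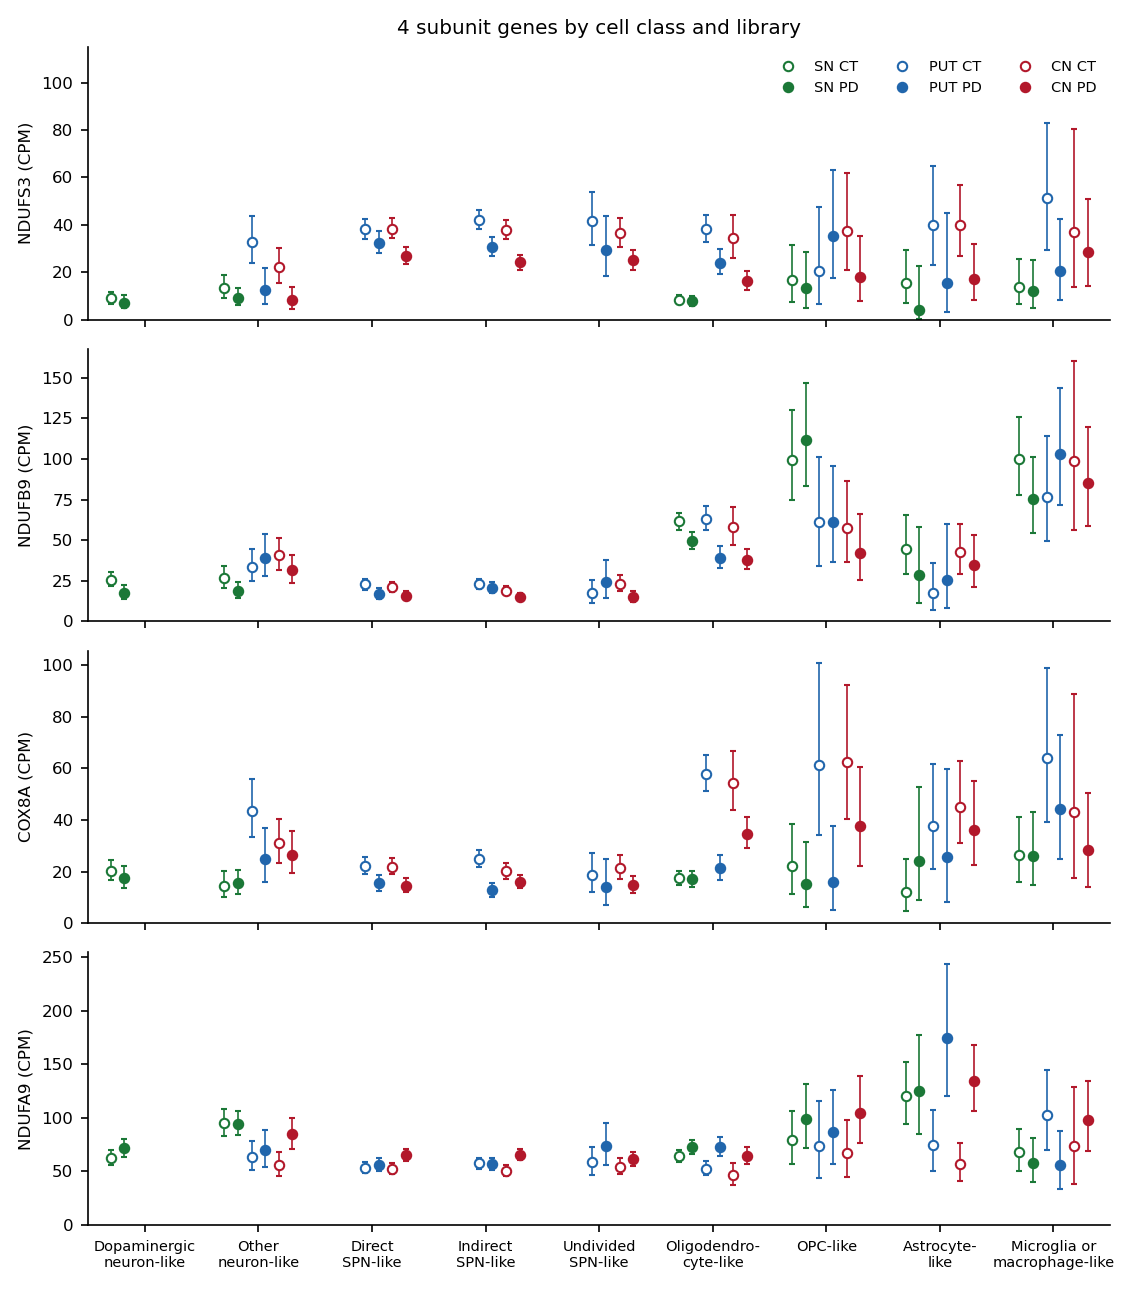
Levels of NDUFS3, NDUFB9, COX8A and NDUFA9 (y axes, CPM of the class) by cell class and library, with open points for CT, filled for PD, green for SN, blue for PUT, red for CN and exact 95% Poisson bars. NDUFS3 is low in SN neuron-like and oligodendrocyte-like nuclei (8.9 CPM and 8.22 CPM in CT), NDUFB9 is high in SN OPC-like and in microglia or macrophage-like nuclei (99.5 CPM and 99.7 CPM in SN CT), COX8A in PUT oligodendrocyte-like nuclei goes from 57.8 CPM in CT to 21.3 CPM in PD, and NDUFA9 in CN astrocyte-like nuclei from 57.1 CPM to 134 CPM.

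In dopaminergic neuron-like nuclei, the cells that degenerate in Parkinson's disease, the members as a group differed little between libraries. Their summed level was 1179.5 CPM in CT and 1201 CPM in PD, a ratio of 1.02 (0.980 to 1.06). Of 36 members measured, 2 were higher and 1 lower in PD, against 5.26% and 4.52% of all genes. The median log2 ratio was -0.02, beside 0.03 over all genes. By complex, the summed levels in CT and PD were 797 and 821 CPM for complex I, 80.5 and 72.7 CPM for complex II, 69.7 and 61.6 CPM for complex III, and 182 and 193 CPM for ATP synthase, and each of these ratios had an interval that held 1. Their depth was alike, with a median of 14196 UMIs in CT and 14178 in PD.

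Single members of the dopaminergic neuron-like nuclei lay outside this pattern. NDUFA5, an accessory subunit of the peripheral arm of complex I, was at 26 CPM in CT (137 UMIs) and 40.9 CPM in PD (162 UMIs), a ratio of 1.58 (1.25 to 1.99). ATP5MC3 and ATP5MC2 encode the same mature ring subunit of ATP synthase. ATP5MC3 was at 12.5 CPM in CT and 18.9 CPM in PD, a ratio of 1.51 (1.07 to 2.14), and ATP5MC2 at 51 CPM and 66.1 CPM, a ratio of 1.30 (1.09 to 1.54). Intervals above 1 were found for 4 of 36 members, a smaller share than the 18.7% of all genes, so such single members are not more frequent here than among genes in general.

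ATP5MD, a small membrane subunit of ATP synthase, was at 20.8 CPM in CT dopaminergic neuron-like nuclei (110 UMIs) and 10.3 CPM in PD (41 UMIs), a ratio of 0.497 (0.338 to 0.717). Thinned to 1000 UMIs per nucleus, the log2 ratio of ATP5MD turned to 0.15. NDUFB9 was at 25.8 CPM and 17.7 CPM, a ratio of 0.686 (0.506 to 0.921), and NDUFA2, an accessory subunit of the peripheral arm, at 26.7 CPM and 18.9 CPM, a ratio of 0.709 (0.528 to 0.944). These last 2 did not reach 1.5-fold.

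Other SN classes were also near their CT levels. In other neuron-like nuclei (322 in CT, 369 in PD) the summed level was 1542 CPM in CT and 1448 CPM in PD, a ratio of 0.939 (0.899 to 0.982), and 2 of 25 members were lower and 0 higher (4.7% and 3.2% of all genes). The lower ones were NDUFA2 (26.5 CPM and 14.5 CPM, ratio 0.547) and UQCRQ, a small subunit of complex III (41 CPM and 25.6 CPM, ratio 0.625). NDUFS4, an accessory subunit of the NADH-oxidizing end of complex I that is mutated in Leigh syndrome, was at 108 CPM and 139.5 CPM, a log2 ratio of 0.37. Mitochondrially encoded RNA in these nuclei was higher in PD, at 83.6 CPM in CT and 177 CPM in PD, and its part in the result was not tested. At clustering resolution 2.0 this class held 0 CT and 2 PD nuclei, so its values could not be checked there.

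In SN oligodendrocyte-like nuclei the summed level was 1461 CPM in CT and 1420.2 CPM in PD, a ratio of 0.972 (0.947 to 0.997), with 1 of 47 members higher and 0 lower (6.01% and 8.23% of all genes). The member past the fold was SDHAF4, which helps to insert the flavin-bearing subunit into complex II, at 16.6 CPM in CT and 27.9 CPM in PD, a ratio of 1.68 (1.36 to 2.10). NDUFA1, a small membrane-arm subunit of complex I, was at 15.5 CPM and 22 CPM, and UQCRQ at 35.1 CPM and 23.6 CPM. CT and PD nuclei lay in different clusters, with 4317 of the CT nuclei in a cluster led by GSN, ENPP6 and MOBP and 3676 of the PD nuclei in one led by ITGA2, MYH7B and RNF220. Within the first cluster the summed ratio was 0.956 (0.919 to 0.995) and the median log2 ratio -0.10. Within the second it was 0.887, with an interval below 1 and a median of -0.42 over 25 members.

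The OPC-like, astrocyte-like and microglia or macrophage-like nuclei of the SN had summed ratios of 1.04, 1.05 and 1.04 with intervals that held 1. They were too sparse for the single genes, with 2, 1 and 3 members measured, 0 of them past 1.5-fold (3.19%, 6.95% and 12.1% of all genes higher, 3.62%, 9.36% and 10.1% lower). The PD microglia or macrophage-like nuclei lay mostly in a cluster (403 of 560 nuclei) other than the one that held 682 of the 694 CT nuclei.

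Within each striatal tissue, the lowest summed PD to CT ratio was in oligodendrocyte-like nuclei. Its interval overlapped those of the OPC-like and the microglia or macrophage-like nuclei, so the gap was not particular to oligodendrocyte-like nuclei. The oligodendrocyte-like summed level in PUT was 2390.4 CPM in CT and 1695 CPM in PD, a ratio of 0.709 (0.687 to 0.732). In CN it was 2188 CPM and 1637 CPM, a ratio of 0.748 (0.718 to 0.779). In PUT, 24 of 47 members were lower in PD and 0 higher, against 11.4% and 4.15% of all genes, and in CN 19 of 41 were lower and 1 higher, against 9.51% and 4.65%. The median log2 ratio was -0.63 in PUT and -0.53 in CN, beside -0.06 and -0.05 over all genes. Of the 41 members measured in both tissues, 35 were lower in PD in both, compared with 42.6% of all genes measured in both, and 13 were past 1.5-fold lower in both, compared with 4.84%. PUT and CN have separate CT libraries, though the labels do not say whether the same animals gave both.

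**Figure D3:**
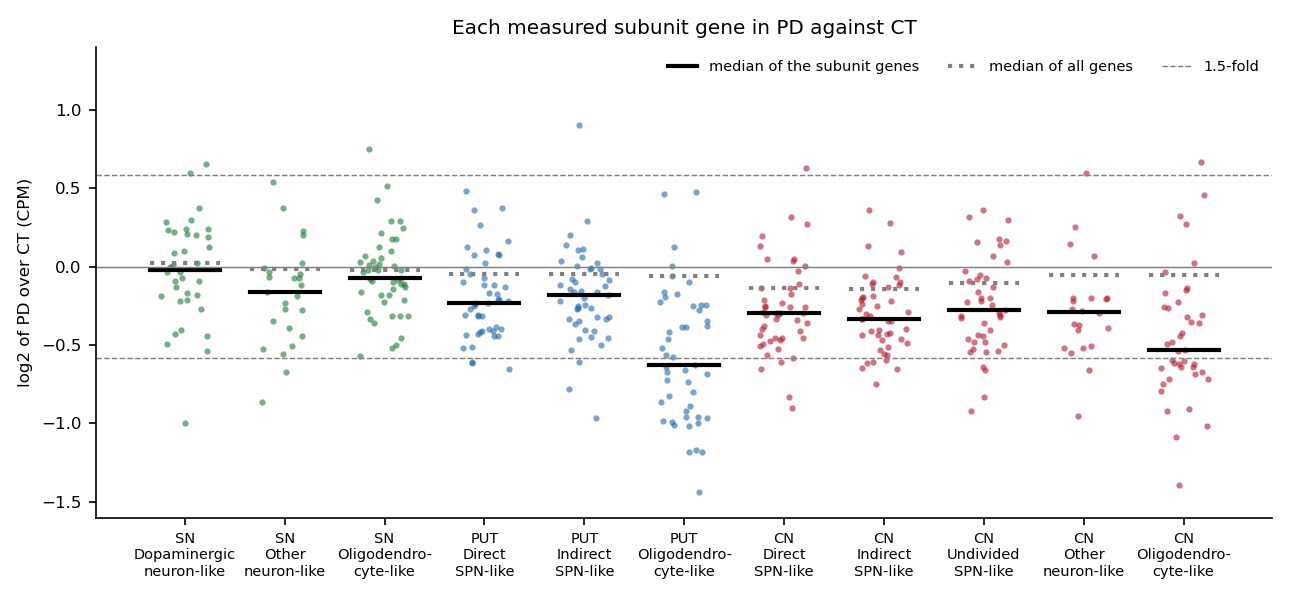
Log2 ratio of PD to CT (y axis) for each member measured in the classes with enough UMIs (x axis), 1 dot per gene, with the member median in black, the median of all genes as a dotted grey line and 1.5-fold as dashed lines. The members' median lies nearest 0 in dopaminergic neuron-like nuclei (-0.02) and lowest in PUT oligodendrocyte-like nuclei (-0.63).

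The 13 genes came from each part of the chain other than complex II. Complex I gave the membrane-arm subunits NDUFB4, NDUFB5, NDUFB7, NDUFB9 and NDUFA1, the core subunit NDUFS3, and NDUFA7, NDUFA13 and NDUFS6. Complex III gave UQCRQ, complex IV COX8A, and ATP synthase the ring gene ATP5MC3 and the stalk subunit ATP5PF. COX8A, a small structural subunit of cytochrome c oxidase, was at 57.8 CPM in PUT CT (270 UMIs) and 21.3 CPM in PUT PD (77 UMIs), a ratio of 0.368 (0.282 to 0.476). NDUFB4 went from 43.5 CPM in PUT CT to 19.1 CPM in PUT PD, a ratio of 0.439. NDUFC2, another membrane-arm subunit, was at 59.1 CPM and 26 CPM in the same nuclei, a ratio of 0.440.

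In CN oligodendrocyte-like nuclei the lowest ratios by the naming rule were those of ATP5ME, NDUFS3 and ATP5PF. ATP5ME, a membrane subunit at the dimer interface of ATP synthase, was at 64.4 CPM in CT and 24.6 CPM in PD, a ratio of 0.381 (0.288 to 0.505). Its log2 ratio was 0.61 among the few nuclei with at least 1000 genes, the opposite direction. NDUFS3 was at 34.3 CPM and 16.1 CPM (ratio 0.471) and ATP5PF at 77.4 CPM and 38.2 CPM (ratio 0.494).

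By complex, all 5 summed levels were lower in PD in both tissues. Of all genes, 11.4% in PUT and 9.51% in CN were past 1.5-fold lower. In PUT oligodendrocyte-like nuclei complex I was at 1545 CPM in CT and 1106 CPM in PD with 17 of 29 members past 1.5-fold lower, complex III at 139 and 89.4 CPM, complex IV at 111 and 49.3 CPM and ATP synthase at 487 and 356 CPM with 3 of 9 members lower. The corresponding CN levels were 1354 and 1065 CPM for complex I (11 of 26 members lower), 139 and 93.3 CPM for complex III, 105 and 76.9 CPM for complex IV and 502 and 312 CPM for ATP synthase (5 of 8 lower). Complex II had a ratio of 0.762 (0.636 to 0.911) in PUT, and its interval in CN held 1 (0.815, 0.636 to 1.05). The PUT gap was widest for complex IV (ratio 0.442) and the CN gap for ATP synthase (ratio 0.622). The complex IV sum rested mainly on COX8A and COX7B, with 3350 and 2477 UMIs over all retained nuclei. Next came COX7A1 with 752. Only COX8A and COX7B had enough UMIs to be compared as single genes, so the gap does not describe complex IV as a whole.

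A few members went the other way in striatal oligodendrocyte-like nuclei. SDHAF4, NDUFA9 and NDUFS1 were higher in PD in both PUT and CN. SDHAF4 was at 19.9 CPM in PUT CT and 27.7 CPM in PUT PD, and at 17.7 CPM in CN CT and 28.5 CPM in CN PD, a CN ratio of 1.61. NDUFA9, an accessory subunit at the junction of the peripheral and membrane arms, was at 52.7 and 72.5 CPM in PUT and at 46.7 and 64.3 CPM in CN, with a ratio of 1.38 in each. NDUFS1, the largest iron-sulfur subunit of complex I, was at 53.8 CPM in PUT CT and 58.7 CPM in PUT PD.

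**Figure D4:**
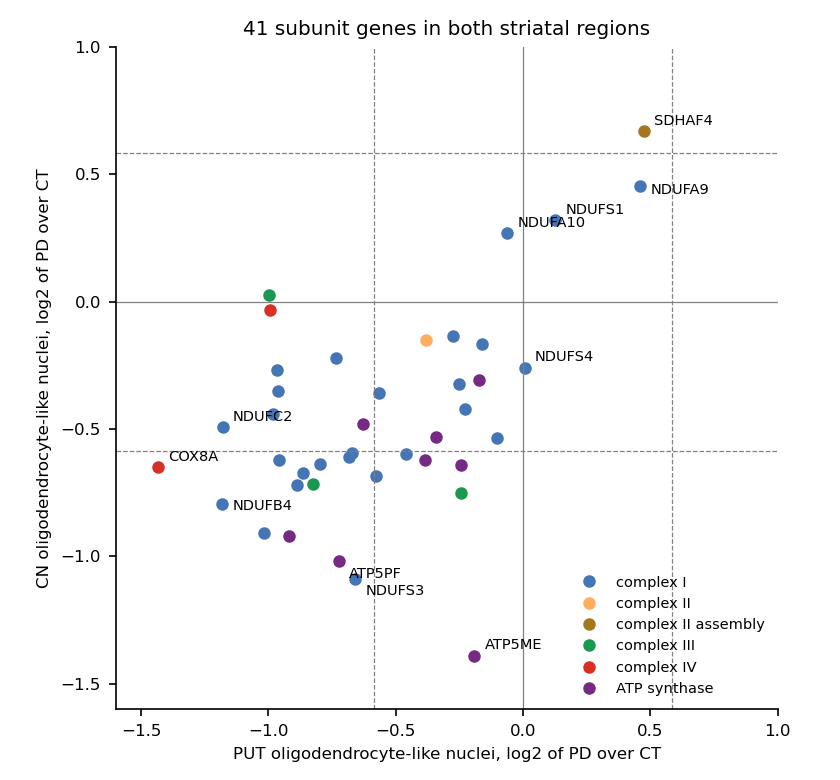
Log2 ratio of PD to CT of each member in oligodendrocyte-like nuclei of PUT (x axis) and CN (y axis), for the 41 genes measured in both, with 1.5-fold as dashed lines. Of these, 35 lie in the lower left, 13 of them past 1.5-fold in both tissues, and SDHAF4, NDUFA9 and NDUFS1 lie in the upper right.

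Other properties of these nuclei moved together with the members. Most PUT CT oligodendrocyte-like nuclei (3798 of 4040) lay in a cluster led by PRUNE2, DTHD1 and OPALIN, and most PUT PD nuclei (2246 of 2721) in one led by KCNH8, OPALIN and CNDP1. The same division held 1683 of 1854 CN CT nuclei and 3004 of 3317 CN PD nuclei. Within the first cluster the summed ratio was 0.819 (0.749 to 0.894) in PUT and 0.952 (0.856 to 1.05) in CN. Within the second it was 0.707 (0.634 to 0.789) in PUT and 0.747 (0.666 to 0.840) in CN. So the members were lower in PD inside 3 of these 4 comparisons by their intervals, and the CN gap was not detectable inside the first cluster.

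The nuclei also differed in depth, with a median of 1047 UMIs in PUT CT and 1207 in PUT PD, and 844 in CN CT and 1126 in CN PD, and nuclei under 1000 UMIs had higher member levels than those of 1000 to under 2000 UMIs in every library. Among oligodendrocyte-like nuclei of at least 1000 and under 2000 UMIs, a range chosen after the data were seen, the summed level was 2304 CPM (2247 to 2363) in PUT CT and 1724 CPM (1676 to 1773) in PUT PD, and 2011 CPM (1896 to 2132) and 1577 CPM (1529 to 1626) in CN. The count of lower members depended on the setting in CN. It was 9 with TMM scaling and 7 with DESeq-type (RLE) scaling, where 5.86% and 5.42% of all genes were lower, and 11 by the mean of nuclei (8.94%). In CN nuclei of at least 1000 and under 2000 UMIs it was 6 of 20 (7.23% of all genes), and with thinning to 1000 UMIs 2 of 12 (6.98%). In PUT it was 16 of 42 with thinning (8.23%) and 5 of 14 in nuclei with at least 1000 genes (7.41%).

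**Figure D5:**
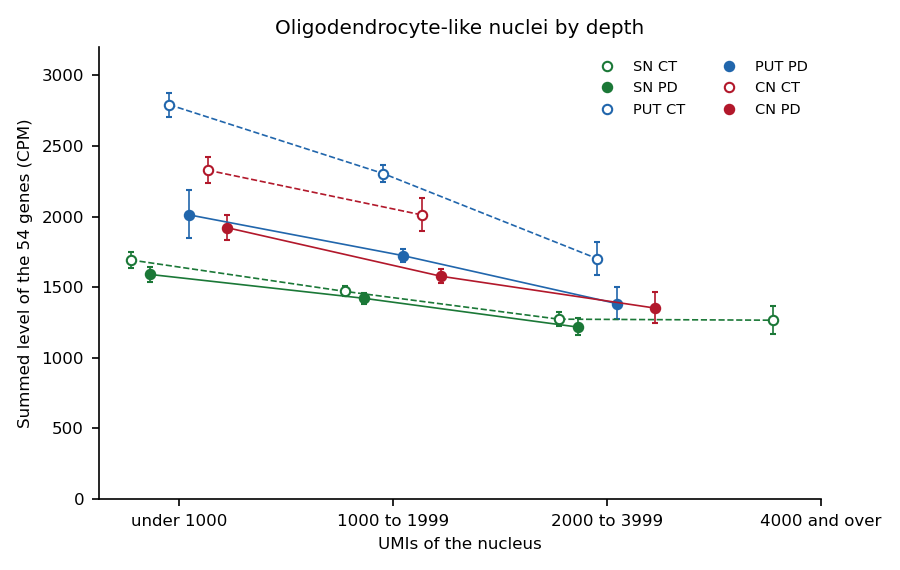
Summed level of the 54 genes (y axis, CPM) in oligodendrocyte-like nuclei grouped by UMIs per nucleus (x axis), with open points for CT, filled for PD, green for SN, blue for PUT, red for CN and exact 95% Poisson bars. Levels decline with depth in each library, and from 1000 to under 2000 UMIs the PUT points stand at 2304 CPM in CT and 1724 CPM in PD.

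Marker RNA of the neighbouring SPNs also differed in these nuclei. Direct SPN markers summed to 150 CPM in PUT CT and 68 CPM in PUT PD, and 147 CPM in CN CT and 82.3 CPM in CN PD. Indirect SPN markers summed to 196 and 94.7 CPM in PUT and 191 and 122 CPM in CN. Their part in the result was not tested. In the SN libraries, which held at most 4 nuclei of any SPN-like class, these sums were between 10.0 and 15.6 CPM.

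In the striatal projection neurons the gap was smaller. Direct SPN-like nuclei (1614 in CT and 1390 in PD of PUT, 1968 and 1373 of CN) had a summed level of 1398 CPM in CT and 1244 CPM in PD in PUT, a ratio of 0.890 (0.865 to 0.916), and 1344 and 1141 CPM in CN, a ratio of 0.848 (0.826 to 0.872). Of 47 members in each, 3 were lower and 0 higher in PUT (6.98% and 3.83% of all genes), and 4 lower and 1 higher in CN (11.6% and 2.48%). These shares are near those of all genes. The medians were -0.23 in PUT and -0.30 in CN, beside -0.05 and -0.13 over all genes. The direct SPN-like nuclei of CN PD were deeper than those of CT (median 5620 and 4161 UMIs), while those of PUT PD were shallower (4218.5 and 4731.5).

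Indirect SPN-like nuclei gave nearly the same figures. Their summed level was 1394 CPM in CT and 1241 CPM in PD of PUT (ratio 0.890, 0.867 to 0.915) and 1356 and 1146 CPM in CN (ratio 0.845, 0.824 to 0.867). In PUT 3 of 47 members were lower and 1 higher (7.16% and 3.76% of all genes), and in CN 6 of 47 lower and 0 higher (11.8% and 2.84%). The undivided SPN-like nuclei of CN had 4 of 43 lower and 0 higher (9.29% and 2.82% of all genes), and those of PUT 0 of 6 in either direction (4.54% lower, 3.86% higher). In CN the median of all genes was itself -0.13 and -0.14 in direct and indirect SPN-like nuclei, and with TMM scaling, which removes most of this shift, the members' medians were -0.16 and -0.18.

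The direction in SPN-like nuclei was shared by more members than passed the fold. In direct SPN-like nuclei 32 of 47 members were lower in PD in both PUT and CN, compared with 47.6% of all genes, and in indirect SPN-like nuclei 36 of 47, compared with 48.7%. NDUFB7, an accessory membrane-arm subunit, was past 1.5-fold lower in both tissues in each SPN type. It was 1 of 47 members, beside 3.83% of all genes in direct and 4.08% in indirect SPN-like nuclei, so the share of members past the fold in both tissues was not above that of all genes. It was at 9.59 CPM in CN CT and 5.11 CPM in CN PD direct SPN-like nuclei, a ratio of 0.533. Across all 6 striatal comparisons that measured NDUFB7, 6 were past 1.5-fold lower, with log2 ratios from -0.90 to -0.62.

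Other subunits named in SPN-like nuclei were also lower in PD. In PUT direct SPN-like nuclei NDUFV1, which binds the flavin that accepts electrons from NADH, was at 23.7 CPM in CT and 15.1 CPM in PD (ratio 0.636), NDUFB10 at 33.4 and 21.8 CPM, and NDUFA5 at 44.3 and 33.2 CPM. COX8A in PUT indirect SPN-like nuclei was at 24.9 CPM and 12.7 CPM, a ratio of 0.511 (0.398 to 0.653), while ATP5F1E was at 38.1 and 24.9 CPM and NDUFA13 at 55.4 and 38.3 CPM. In CN direct SPN-like nuclei NDUFA2 was at 25.3 and 14.2 CPM (ratio 0.562), and ATP5MC3 at 23.7 and 15.6 CPM. Indirect SPN-like nuclei of CN had NDUFS3 at 37.7 and 24.1 CPM, NDUFB10 at 24.7 and 15.7 CPM and UQCRQ at 40.2 and 27.3 CPM. These genes belong to complexes I, III, IV and V alike.

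Members that were higher in PD in SPN-like nuclei were few. SDHAF4 in PUT indirect SPN-like nuclei was at 11.8 CPM in CT and 22.1 CPM in PD, a ratio of 1.87 (1.46 to 2.41), and in CN direct SPN-like nuclei at 11.6 and 18 CPM. NDUFV3, an accessory subunit next to the flavin site, was at 14.9 and 20.9 CPM in PUT direct SPN-like nuclei. NDUFA9 was at 52.5 and 65.3 CPM in CN direct and 50.7 and 65.3 CPM in CN indirect SPN-like nuclei. NDUFS1 was at 48 and 58.7 CPM in PUT indirect SPN-like nuclei.

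Other neuron-like nuclei of the striatum had summed levels of 1670.3 CPM in CT and 1389.8 CPM in PD in PUT (ratio 0.832, 0.778 to 0.890) and 1703 and 1371 CPM in CN (ratio 0.805, 0.762 to 0.850). Of 22 members measured in CN, 2 were lower and 1 higher (7.22% and 2.35% of all genes), and of 9 in PUT 0 in either direction (4.16% and 2.91%). UQCRQ in CN was at 55.3 CPM in CT and 28.4 CPM in PD, a ratio of 0.514, and NDUFA9 at 55.8 and 84.5 CPM, a ratio of 1.51. The class spans several clusters. Within the 2 that held at least 50 nuclei of each library, the summed ratio was 0.844 and 0.803 in PUT and 0.788 and 0.819 in CN, each with an interval below 1.

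The remaining striatal glia shared the direction of the oligodendrocyte-like nuclei at lower precision. OPC-like nuclei had summed levels of 2235 CPM in CT and 1633 CPM in PD in PUT (ratio 0.731, 0.647 to 0.826) and 1951 and 1529 CPM in CN (ratio 0.784, 0.706 to 0.870). Microglia or macrophage-like nuclei had 2898 and 2224 CPM in PUT (ratio 0.768, 0.696 to 0.846) and 2390.4 and 1869 CPM in CN (ratio 0.782, 0.690 to 0.887). Astrocyte-like nuclei had 2146 and 1745 CPM in PUT (ratio 0.813, 0.715 to 0.923) and 2009 and 1778 CPM in CN (ratio 0.885, 0.817 to 0.959). Oligodendrocyte marker RNA in the PUT astrocyte-like nuclei stood at 3372 CPM in CT and 2202 CPM in PD, and its part in the result was not tested. In CN it was the other way, at 1151 CPM and 1454 CPM.

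Few single members could be measured in these glia, none in PUT and 1 in CN OPC-like nuclei, which was not past 1.5-fold (3.74% of all genes higher, 3.57% lower). In CN astrocyte-like nuclei 1 of 3 members was higher and 0 lower (4.69% and 5.68% of all genes). It was NDUFA9, at 57.1 CPM in CT (43 UMIs) and 134 CPM in PD (78 UMIs), a ratio of 2.35 (1.60 to 3.50). In PUT astrocyte-like nuclei NDUFA9, with too few UMIs to be compared, was at 75 CPM in CT (30 UMIs) and 175 CPM in PD (34 UMIs). In the SN astrocyte-like nuclei it was at 121 and 125 CPM, so the NDUFA9 gap was not seen in that library pair.

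Counted over the striatal comparisons, 47 members were measured at least once. Of these, 24 were lower in PD in every comparison that measured them and 2 were higher in every one, and 30 were past 1.5-fold lower at least once. Of the 11188 genes measured at least once in these comparisons, 24.2% were lower in every one that measured them, 8.49% were higher in every one, and 31.1% were past 1.5-fold lower at least once. Genes measured in few comparisons meet the first 2 of these more easily. Among genes measured in at least 6 comparisons, 24 of 45 members were lower in every one (17.6% of all genes). In the same set 2 were higher in every one (4.19%) and 30 were past 1.5-fold lower at least once (29.9%). The comparisons of a tissue share their animals and library, so they are not independent. COX8A was lower in 8 of 8 comparisons (log2 ratio -1.43 to -0.22), UQCRQ in 8 of 8 (-0.95 to -0.31), NDUFB9 in 8 of 8 and NDUFA13 in 9 of 9. The ATP synthase genes ATP5F1D, ATP5F1E, ATP5MD and ATP5PF were each lower in 8 of 8.

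The 2 members higher in every striatal comparison were NDUFS1 and SDHAF4. NDUFS1 was higher in 10 of 10, with log2 ratios from 0.10 to 0.49 and none past 1.5-fold. SDHAF4 was higher in 7 of 7, with log2 ratios from 0.28 to 0.90, 3 of them past 1.5-fold. NDUFA9 was higher in 10 of 11 (log2 ratio -0.02 to 1.23). The 2 members with the most UMIs in the data had no single direction: NDUFS4 was lower in 8 and higher in 4 of 12 comparisons (-0.26 to 0.49), and NDUFA10, an accessory complex I subunit, lower in 6 and higher in 5 of 11.

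Tissue-restricted isoforms of complex IV were nearly absent. Over all retained nuclei COX7B2 had 1 UMI, COX6A2 4, COX6B2 8 and COX4I2 13, the first 3 of which are known from testis or muscle and the last from lung and hypoxic cells. COX7A1, the heart and skeletal muscle isoform, had 752 UMIs, with a median class level of 1.8 CPM in SN CT and 9.5 CPM in the striatal CT libraries. NDUFA4L2, a hypoxia-induced paralog of NDUFA4, had 125 UMIs and in CT stood at 5.38 CPM in SN other neuron-like nuclei (13 UMIs), at 7.89 CPM in CN (14 UMIs), and at 0.122 CPM in direct SPN-like nuclei of PUT (1 UMI). The assembly factor SDHAF1 had 13 UMIs. These genes were too sparse for a PD against CT comparison.

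Other gene lists show what else differed in the same nuclei. Of all genes, 11.4% in PUT and 9.51% in CN oligodendrocyte-like nuclei were past 1.5-fold lower in PD. In PUT oligodendrocyte-like nuclei the ribosomal protein genes summed to 3688 CPM in CT and 2488 CPM in PD (ratio 0.675, 21 of 52 genes past 1.5-fold lower), and in CN to 4708 and 3034 CPM (ratio 0.644, 30 of 49 lower). Genes of glycolysis summed to 479 and 295 CPM in PUT (ratio 0.615, 6 of 7 lower) and had a ratio of 0.691 in CN. Further subunits and carriers of the chain that the symbol rule did not catch had ratios of 0.682 in PUT (6 of 11 lower) and 0.721 in CN. Lower PD levels in these nuclei were thus also found outside the respiratory chain.

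By summed level, genes that build the chain rather than form it were nearer their CT levels. Complex I assembly factors summed to 688 CPM in CT and 731 CPM in PD of PUT oligodendrocyte-like nuclei, a ratio of 1.06. Of these, 1 of 11 was higher and 0 lower (4.15% and 11.4% of all genes). Their ratio was 0.983 in CN. Assembly factors of complexes III to V had ratios of 0.907 in PUT and 0.897 in CN, with intervals below 1. In PUT 4 of 16 were past 1.5-fold lower (11.4% of all genes), and in CN 2 of 12 (9.51%). Regulators of mitochondrial biogenesis had ratios of 1.03 in PUT and 0.997 in CN, both with intervals that held 1. The tricarboxylic acid cycle genes, at 0.809 in PUT, were between the members and these lists. In CN, at 0.936, they lay above the assembly factors of complexes III to V.

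Mitochondrially encoded genes, the other genetic source of subunits, did not follow the nuclear ones across tissues. In PUT oligodendrocyte-like nuclei they summed to 390 CPM in CT and 200 CPM in PD, with 8 of 8 genes lower (11.4% of all genes). In CN they summed to 427 and 340.5 CPM. In SN oligodendrocyte-like nuclei they summed to 229.9 CPM in CT and 394 CPM in PD, with 9 of 10 genes higher (6.01% of all genes). The nuclear-encoded members had a ratio of 0.972 there. In dopaminergic neuron-like nuclei they summed to 90.2 and 101 CPM, a ratio of 1.13 with an interval that held 1. Mitochondrial transcripts in a preparation of nuclei come from outside the nucleus.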

How the data were processed

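Nuclei were isolated with a nuclei kit and run on the 10x 3′ v3 platform, per the labels' protocols. The deposited matrices hold UMI counts per gene and barcode that the authors obtained from Cell Ranger 7.0.1, per the file headers, without normalization. The submitters' processing notes name hg38 and the extract protocol Macaca mulatta, whereas the gene identifiers are those of Macaca fascicularis. How reads shared with near-identical copies such as processed pseudogenes were counted is not given in the sources used here. The group of a matrix comes from its file name, and its barcodes cannot be assigned to the labelled samples.

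Barcodes were kept if they had 500 or more genes, no more than 5% mitochondrial UMIs and a Scrublet doublet score up to 0.25 (Scrublet's own threshold marked 3 to 694 nuclei and was not used). With scanpy 1.11.5, 2000 variable genes (members, mitochondrial and ribosomal genes left out), 30 components, 15 neighbours and Leiden resolution 1.0 gave clusters over all libraries, without batch correction or correction for free RNA. Clusters were named from 129 markers, 127 of them in the annotation, with naming thresholds set after the marker levels were seen. The undivided SPN-like class was added then too. Clusters with markers of more than one family, or with a median doublet score of at least 0.2, were left out. They held 7.53% of retained nuclei in PUT CT and 4.11% in PUT PD. UMIs were summed per class and library, and divided by the summed UMIs of the class. Members needed at least 100 UMIs over both groups and classes at least 100 nuclei in both.

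Named genes were the 3 highest and 3 lowest members of each comparison by the interval bound nearest no difference, the core subunits, isoform groups, and members high in single classes. Members, lists and rules were chosen with earlier results of these data known. Genes beyond this rule were named after their values were seen. Intervals were tested on simulated counts. TMM and RLE factors came from edgeR 4.0.16. Alternatives were scaling, UMI and gene minima, doublet score, thinning, resolution, single clusters and depth ranges. No reference genome or sequence was used.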

Additional observations from a re-analysis of the deposited data

Results flagged for a closer look

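Some members differed in direction between tissues in oligodendrocyte-like nuclei, with SN PD above SN CT and striatal PD below striatal CT, each on intervals that leave out 1. They were 3 of 47 members measured, beside 4.24% of all genes with the same pattern (SN above 1, PUT or CN below 1). Each direction rests on 1 library per group, and the difference between tissues was not tested. ATP5MC3, a ring gene of ATP synthase, had a log2 ratio of PD to CT of 0.43 in SN, -0.92 in PUT and -0.92 in CN. NDUFA1, a small membrane-arm subunit of complex I, had 0.51 in SN, -0.67 in PUT and -0.60 in CN. NDUFS4 had 0.22 in SN and -0.26 in CN.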

How the results depend on the processing

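No paired analysis was possible because the labels number the samples but the matrices carry no sample or replicate number. For the same reason no replicate could be left out. Of 270 alternative values for the comparisons as a whole, 240 stayed within the interval of the reported value and 30 moved beyond it. The sign changed in 12, each with a reported interval that included no difference, and 1 of them was a striatal PD against CT value (undivided SPN-like nuclei of PUT, summed level 0.020 thinned). Of 917 alternative values for named members, 877 stayed within the interval and the sign changed in 32, of which 2 were past 1.5-fold as reported (ATP5MD in dopaminergic neuron-like nuclei thinned to 1000 UMIs, 0.15, and ATP5ME in CN oligodendrocyte-like nuclei with at least 1000 genes, 0.61). The cause of these was not tested, and in the thinned dopaminergic neuron-like nuclei 0 members reached 100 UMIs. Values are median log2 ratios of the members of PD to CT unless said otherwise. With TMM scaling they were -0.16 in CN direct SPN-like, -0.18 in CN indirect SPN-like and -0.18 in CN other neuron-like nuclei, and with RLE -0.14, -0.18 and -0.20, with -0.18 for the summed level of CN OPC-like nuclei. Thinning gave -0.30 in PUT indirect SPN-like, -0.18 in CN indirect SPN-like and -0.26 in CN oligodendrocyte-like nuclei and 0.26 for the summed level of SN OPC-like nuclei. Nuclei with at least 1000 genes gave -0.32 in PUT oligodendrocyte-like nuclei, and summed levels of 0.38 in SN microglia or macrophage-like and -0.14 in CN OPC-like nuclei. Depth ranges added after the data were seen gave -0.19 in CN indirect SPN-like nuclei of at least 4000 UMIs and a summed level of -0.53 in PUT astrocyte-like nuclei of at least 1000 and under 2000 UMIs. Single clusters gave -0.42 and -0.15 in SN oligodendrocyte-like and -0.25 in CN oligodendrocyte-like nuclei. Between CT classes, oligodendrocyte-like to direct SPN-like was -0.58 in PUT and -0.39 in CN with at least 1000 genes and -0.71 and -0.29 thinned. To indirect SPN-like it was -0.59 and -0.43 with at least 1000 genes, and -0.34 in CN thinned. From direct to indirect SPN-like nuclei the thinned median was -0.052 in PUT CT and -0.083 in CN CT, and direct SPN-like to other neuron-like in CN 0.20 at resolution 2.0. SN astrocyte-like and SN other neuron-like nuclei at resolution 2.0 gave no value, having under 50 nuclei. The SN other neuron-like class held 0 CT and 2 PD nuclei there, so its comparison with dopaminergic neuron-like nuclei had no value either. Striatal microglia or macrophage-like nuclei with at least 1000 genes and those of CN thinned also had under 50 nuclei and gave no value. Depth limits the glia other than oligodendrocyte-like nuclei, where at most 3 members reached 100 UMIs.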
